A study of Mus musculus with 45 samples.

Results

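Genes of BMP signalling, 10 of the 53491 genes in each table, were followed by SLAM-seq in primary mouse cortical cells. They were chosen by name and role, with earlier results of these data known. They are the inhibitors of differentiation Id1, Id2, Id3 and Id4, the inhibitory Smads Smad6 and Smad7, the pseudoreceptor Bambi, the ligands Bmp4 and Bmp7, and the receptor Bmpr1a. All 10 were found in the tables. The rule asks for expression by stage and chase time, and for label and half-life where more than 500 covered Ts stand behind each rate.

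BMP ligands are secreted dimers that bring type I and type II serine/threonine kinase receptors together at the cell surface. The active type I receptor phosphorylates the receptor Smads SMAD1, SMAD5 and SMAD9, which join SMAD4 and act on transcription in the nucleus. The Id genes are classical direct targets of this pathway. Their proteins lack a DNA-binding region and pair with E proteins, the common partners of proneural bHLH factors, so that these cannot bind DNA. Smad6, Smad7 and Bambi are also targets, and their products inhibit signalling from within the cell or at the receptor. In the embryonic forebrain the dorsal midline, with the cortical hem and choroid plexus, is a known source of BMP ligands, and the meninges are another.

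Cortices came from wild-type (WT) embryos of 3 stages of neurogenesis (E11.5 early, E14.5 in the middle, E16.5 late), with 3 replicates (A, B and C) at each stage. Each replicate was a pool of 7 embryos at E11.5 or of 2 embryos at the later stages, and its dissociated cells were divided over 5 wells in a neural progenitor medium with bFGF. All wells received 100 uM 4-thiouridine (4sU), a uridine analogue that is read as C in place of T after alkylation, for 20 h. Cells were then lysed 0, 2, 4, 8 or 12 h after 5 mM uridine was added, which gave 45 libraries in 15 groups of 3. No BMP ligand or inhibitor is named among the medium's components, and no library without 4sU was used here. Wells of one letter within a stage share a pool, whereas a letter shared between stages marks different embryos.

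In units of 1000000, a library held 15.9 to 43.9 reads summed over the genes and 228.7 to 629.1 covered Ts (T positions under reads). The library total used to scale expression was larger, at 17.7 to 48.2 reads in these units. The summed level of 7 radial glia markers (Vim, Sox2, Pax6 and others) was 9683 to 10211 CPM (a gene's reads per 1000000 reads of the library) at E11.5, then 3700 to 4295, then 1486 to 1635. That of 6 neuronal markers (Tubb3, Dcx and others) was 1866 to 2273, then 3852 to 4388, then 5037 to 5360 CPM. Of the 7 radial glia markers, 6 were called lower at E16.5 than at E11.5 by the rule given below, whereas Slc1a3 was called higher. The cultures thus carried the markers of the labelled tissue, at levels that moved with stage. In bulk RNA, fewer cells of a type and less RNA per cell cannot be told apart, which touches every comparison between stages below. Markers of 3 other tissues bear on single results. Meningeal and mural markers summed to 468 to 707 CPM at E11.5 against 15.6 to 33.6 CPM at the later stages. E11.5 pool C stood apart in several cortical hem and choroid plexus markers, and E16.5 pool B in choroid plexus genes, and their values are given beside the members they move with.

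Id2 and Id4 had the shortest mean half-lives among the Id genes, so the AU-rich letters of their 3′ UTRs are shown first. The heptamer TATTTAT, a core often found in AU-rich elements, was present in 26.1% of 20807 mouse 3′ UTRs, and the pentamer ATTTA, which it contains, in 62.8%. The 785-nt 3′ UTR of Id2 held 2 heptamers and 3 pentamers, and the 3093-nt 3′ UTR of Id4 held 1 and 9. Those of Id1 (397 nt) and Id3 (536 nt) held 0 of either. Among the other members, Bmp4 and Bmp7 held 2 heptamers each, Smad6 and Smad7 held 1 each, and Bambi and Bmpr1a held 0. The windows below are sense-strand sequence of the principal isoform (GENCODE release 21, GRCm38), 5′ to 3′, with the heptamer in capitals. They lie at chr12:25094354-25094383 (minus strand), chr12:25094105-25094134 (minus strand) and chr13:48264830-48264859 (plus strand), with the heptamer 212, 461 and 1908 nt into the 3′ UTR.
Id2, first site: tgtgataccgtTATTTATgagagactttca
Id2, second site: tgctgtgtataTATTTATatataaatatat
Id4: tcaaagtcaaaTATTTATggggatctgaaa

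Promoters were available for 6 members, and those of 3 Id genes are shown because their levels moved in different directions. They run from 250 bases before to 50 after the start (RefSeq, GRCm38.p6), with 2 motifs in capitals, GGCGCC (a GC-rich Smad1/5 motif) and GTCTG (a Smad box, CAGAC on the other strand). Of 27025 promoters, 12.0% held GGCGCC and 49.7% held GTCTG on either strand. GGCGCC occurred 1 time in each of Id2 (chr12:25096043-25096342, minus strand), Id4 (chr13:48260866-48261165, plus strand) and Bmpr1a, and GTCTG occurred 2 times in Id3 (chr4:136143572-136143871, plus strand). The windows of Smad6 and Bmp4 held 0 of both. These are letter matches in a short window, and binding was not measured.
Id2: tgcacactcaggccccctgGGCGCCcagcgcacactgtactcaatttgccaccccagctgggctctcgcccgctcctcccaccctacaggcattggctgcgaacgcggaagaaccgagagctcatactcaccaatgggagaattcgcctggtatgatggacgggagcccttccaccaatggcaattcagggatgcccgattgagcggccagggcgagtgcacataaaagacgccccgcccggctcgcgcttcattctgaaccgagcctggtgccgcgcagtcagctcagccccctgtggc
Id3: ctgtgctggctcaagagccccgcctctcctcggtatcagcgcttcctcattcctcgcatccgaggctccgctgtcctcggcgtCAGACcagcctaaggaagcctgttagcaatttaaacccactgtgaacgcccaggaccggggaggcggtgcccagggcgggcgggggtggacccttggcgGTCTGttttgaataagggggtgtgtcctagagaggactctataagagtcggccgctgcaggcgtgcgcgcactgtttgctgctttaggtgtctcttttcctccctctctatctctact
Id4: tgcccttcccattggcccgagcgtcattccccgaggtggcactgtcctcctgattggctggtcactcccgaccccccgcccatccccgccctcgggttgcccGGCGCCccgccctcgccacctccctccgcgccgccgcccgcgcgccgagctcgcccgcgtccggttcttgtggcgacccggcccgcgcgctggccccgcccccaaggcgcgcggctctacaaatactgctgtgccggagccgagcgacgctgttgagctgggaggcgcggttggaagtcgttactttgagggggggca

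To see which members were present, levels at 0 h were first divided by the length of each gene's merged exons (CPM per kb, mean ± SD, n = 3). At E11.5 the order was Id4 (79.1 ± 2.78), Id2 (56.0 ± 3.87) and Bmpr1a (42.1 ± 1.30), then Id3 (18.3 ± 10.6), Bmp7 (16.3 ± 1.12) and Id1 (11.1 ± 5.38). Id3, Bmp7 and Id1 overlapped in their ranges. Smad6 (0.68 ± 0.13), Bambi (0.59 ± 0.097), Smad7 (0.52 ± 0.021) and Bmp4 (0.14 ± 0.061) were all below 1 CPM per kb, and Bambi overlapped both Smad6 and Smad7. At E16.5 Id2 led with 223 ± 10.3 CPM per kb, followed by Id4 (53.8 ± 2.02) and Bmpr1a (17.2 ± 0.85). Id1 (5.05 ± 0.42) then stood above Id3 (2.86 ± 0.72) and Bmp7 (2.45 ± 0.26), whose ranges overlapped. Smad7 (1.73 ± 0.056) was above Bambi (0.48 ± 0.057) and Smad6 (0.22 ± 0.021) there. Exons of Id4, Bmp4 and Bmpr1a overlap genes of the other strand, and the strand setting of the counting is not given in the sources used here, so part of their reads may belong to those genes.

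The first comparison asked how the members' expression differed between stages at the end of labelling. Between E11.5 and E14.5, 1 member rose (Id2) and 4 fell (Id1, Id3, Smad6 and Bmp7) of the 9 that could be tested. A call required a Benjamini-Hochberg adjusted p under 0.05 over all 18408 genes tested and a log2 fold change beyond 1, in edgeR's quasi-likelihood test on covered-T counts. By this rule 8.14% of all genes were called higher and 8.00% lower at E14.5. The median log2 fold change of the 9 members was -0.74, beside -0.01 over all genes. Between E11.5 and E16.5, 2 members rose (Id2 and Smad7) and 5 fell (Id1, Id3, Smad6, Bmp7 and Bmpr1a), where 14.7% of all genes were called higher and 14.6% lower. The members' median was -1.06 there, beside -0.04 over all genes. Between E14.5 and E16.5 0 of 9 members were called, against 7.19% of genes higher and 5.92% lower. There 4 members (Id2, Smad7, Bmp7 and Bmpr1a) had an adjusted p under the limit, and an unadjusted p under it too, with a smaller fold. Any pair of these comparisons shares libraries. Replicates that do not overlap between stages were common. This held for 55.4% of all genes and 9 of 9 members between E11.5 and E14.5, for 61.4% and 5 of 9 between E14.5 and E16.5, and for 71.4% and 8 of 9 between E11.5 and E16.5.

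**Figure D1:**
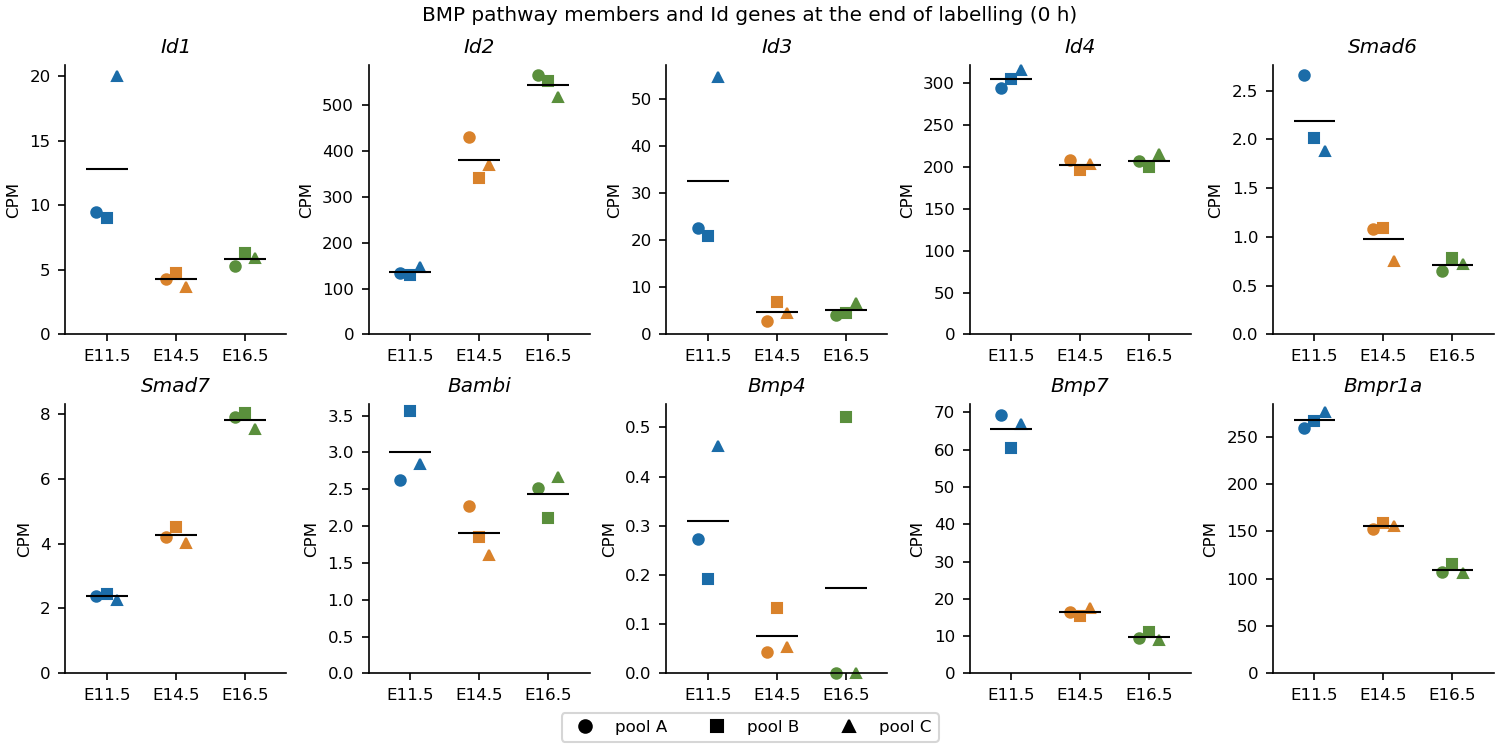
Expression of the 10 genes at 0 h of chase, in CPM (vertical axes, from 0, scaled for each gene), at the 3 stages. Each point is 1 library, its shape the pool, and each line the mean of 3. Id2 and Smad7 are higher at each later stage, whereas Id1, Id3, Smad6 and Bmp7 are highest at E11.5. E11.5 pool C is far above pools A and B for Id1 and Id3, and Bmp4 is above 0.5 CPM only in E16.5 pool B.

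Among the Id genes, Id2 moved against the others. Id2 is known from both progenitors and cortical neurons. In pools A, B and C it stood at 134, 128 and 147 CPM (E11.5), at 430, 340 and 369 CPM (E14.5) and at 564, 551 and 515 CPM (E16.5). No library of a later stage overlapped an earlier one. It rose by 1.48 on the log2 scale (SE 0.09, edgeR adjusted p = 3.63e-08) to E14.5, and by 2.04 (SE 0.09, adjusted p = 8.17e-10) to E16.5. The step from E14.5 to E16.5 was 0.56 (SE 0.09, adjusted p = 2.06e-04), under the fold limit.

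Id4, a marker of neural progenitors whose protein pairs with E proteins, moved least among the Id genes. Pools A, B and C held 293, 305 and 315 CPM (E11.5), 208, 196 and 203 CPM (E14.5), and 207, 199 and 215 CPM (E16.5). Every E11.5 library was above all later ones, with a fold change on the log2 scale of -0.45 (SE 0.06, adjusted p = 7.29e-05) to E14.5, and one of -0.42 (SE 0.06, adjusted p = 7.43e-05) to E16.5. Both are under the fold limit, and E14.5 and E16.5 overlapped.

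Id1 and Id3, which are often expressed together and are common readouts of BMP signalling, both fell after E11.5. Pools A, B and C held 9.47, 8.99 and 20.0 CPM of Id1 (E11.5), then 4.33, 4.78 and 3.68 CPM (E14.5) and 5.33, 6.28 and 5.96 CPM (E16.5). They held 22.6, 20.97 and 54.6 CPM of Id3 (E11.5), then 2.91, 6.86 and 4.67 CPM (E14.5) and 4.22, 4.55 and 6.60 CPM (E16.5). In both genes E11.5 pool C was more than 2 times pools A and B, yet the lowest E11.5 library was above every later one. Id1 fell by 1.51 on the log2 scale (SE 0.26, adjusted p = 3.93e-04) to E14.5, and Id3 fell by 2.73 (SE 0.39, adjusted p = 7.83e-05). At E16.5 the difference from E11.5 was -1.06 for Id1 (SE 0.26, adjusted p = 0.00306) and -2.59 for Id3 (SE 0.39, adjusted p = 6.26e-05).

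Much of the Id1 difference lay in E11.5 pool C. Without that pool the Id1 values were -1.05 (adjusted p = 3.11e-04) and -0.61 (adjusted p = 0.00807), so the second call is lost at the fold limit. It is also lost without E16.5 pool A, at -0.91. Id3 stayed called without pool C, at -2.11 (adjusted p = 8.04e-05) and -1.99 (adjusted p = 6.73e-05). The 7 choroid plexus and cortical hem markers summed to 12.1, 13.0 and 28.7 CPM in E11.5 pools A, B and C, and 6 of 7 were highest in pool C. Lmx1a was at 3.13, 3.41 and 6.65 CPM, Rspo3 at 6.10, 6.88 and 16.7 CPM, and Otx2 at 0.78, 0.58 and 2.27 CPM. Bmp7 and Msx1, whose values are given below, were not highest in pool C. Ttr, the defining choroid plexus gene, was at 1.56, 1.49 and 1.65 CPM, nearly even across the pools, and Kcne2 was at 0. The embryonic globin Hbb-y was also highest in pool C, at 1141, 1511 and 2582 CPM. The part of these cells in the Id1 and Id3 levels was not tested.

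Over all 45 libraries, each Id gene was set against 10366 protein-coding genes with a mean of at least 5 CPM. The most alike by Pearson's r of log2(CPM + 1) were Prickle2 (0.988), Smarca2 (0.987) and Agtpbp1 (0.987) for Id2, and Mical1 (0.915), Ppp1r2 (0.890) and Cdr2l (0.887) for Id4. For Id1 they were Synpr (0.867), Sulf2 (0.855) and Sorcs2 (0.843), and for Id3 Serpine2 (0.883), Rps6ka1 (0.876) and Tril (0.848). Id1 and Id3 had r = 0.817 with each other, whereas Id2 had r = -0.543 with Id1, -0.680 with Id3 and -0.646 with Id4. These are descriptions over libraries that share stages and pools.

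The inhibitors moved in different directions. Smad6, which blocks receptor Smads, stood in pools A, B and C at 2.66, 2.02 and 1.88 CPM (E11.5), 1.08, 1.09 and 0.75 CPM (E14.5) and 0.65, 0.78 and 0.72 CPM (E16.5). These values rested on 17 to 68 reads a library, and E11.5 did not overlap the later stages. Smad6 differed by -1.14 on the log2 scale (SE 0.23, adjusted p = 0.00123) at E14.5, and by -1.32 (SE 0.23, adjusted p = 2.50e-04) at E16.5. Both Smad6 calls are lost where the fold limit itself is tested with glmTreat (adjusted p = 0.771 and 0.133) and on the log2(CPM + 1) scale (-0.69 and -0.89). Id1 loses both calls under glmTreat too (adjusted p = 0.0988 and 0.657).

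Smad7, an inhibitory Smad that acts on both BMP and TGF-beta receptors, went the other way. Pools A, B and C held 2.39, 2.45 and 2.27 CPM (E11.5), 4.203, 4.52 and 4.03 CPM (E14.5), and 7.91, 8.01 and 7.53 CPM (E16.5). The stages did not overlap. It rose from E11.5 to E16.5 by 1.69 on the log2 scale (SE 0.13, edgeR adjusted p = 8.01e-08), and each step alone was under the fold limit, at 0.87 (SE 0.12) and 0.82 (SE 0.12). Bambi, a receptor-like protein without a kinase domain, held 2.62, 3.56 and 2.85 CPM (E11.5), 2.27, 1.85 and 1.61 CPM (E14.5), and 2.51, 2.11 and 2.67 CPM (E16.5). It was not called in any stage comparison. E14.5 differed from E11.5 by -0.58 on the log2 scale (SE 0.20, adjusted p = 0.0281), and E16.5 differed from E14.5 and E11.5 by 0.34 and -0.25 (SE 0.20 each).

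Of the ligands, Bmp7 fell after E11.5 and Bmp4 was close to the detection limit. Bmp7, which the meninges and midline are known to express, held 69.2, 60.5 and 66.8 CPM (E11.5), 16.47, 15.5 and 17.4 CPM (E14.5), and 9.51, 11.0 and 9.0 CPM (E16.5). No stages overlapped. Bmp7 differed by -1.91 on the log2 scale (SE 0.10, edgeR adjusted p = 1.33e-08) between E11.5 and E14.5, by -0.82 (SE 0.10, under the fold limit) from there to E16.5, and by -2.74 (SE 0.11, adjusted p = 2.67e-10) over both steps. Of 8 meningeal and mural markers, Col3a1 was at 242, 359 and 279 CPM at E11.5 against 1.57 to 7.32 CPM later, and 7 of 8 were higher in every E11.5 pool than in any later one. The exception was Dcn, at 2.50 to 2.84 CPM at E11.5 and 4.81 to 8.96 CPM later. Within E11.5 the pool with most Col3a1, pool B, had the least Bmp7. The part of these cells in the Bmp7 level was not tested.

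Bmp4, a ligand of the dorsal midline, held 0.27, 0.19 and 0.46 CPM (E11.5, 4 to 12 reads) and 0.042, 0.13 and 0.054 CPM (E14.5, 2 to 4 reads). At E16.5 it had 0 reads in pools A and C, where 3 reads would have been 0.114 and 0.0801 CPM, and 22 reads (0.52 CPM) in pool B. Pool B also held 310 CPM of the choroid plexus gene Ttr, against 0 and 0.13 CPM in pools A and C, 4.57 CPM of Folr1 against 0 and 0, and 0.78 CPM of Otx2 against 0 and 0.13. The 7 choroid plexus and hem markers summed to 445 CPM in pool B against 134 and 133 CPM in the others, where Rspo3 made up nearly all. The part of choroid plexus cells in the Bmp4 reads was not tested. Bmp4 did not pass the filter of more than 10 counts in every library and has no stage test.

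Bmpr1a, a BMP type I receptor, was lower at each later stage. Its pools held 259, 267 and 276 CPM (E11.5), 152, 159 and 156 CPM (E14.5), and 107, 115 and 106 CPM (E16.5), with no overlap. Between E11.5 and E16.5 it differed by -1.21 on the log2 scale (SE 0.06, edgeR adjusted p = 1.88e-09), with steps of -0.74 (SE 0.06) and -0.47 (SE 0.06), each under the fold limit.

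The other genes of the pathway were taken as 51 names in 7 lists, of which 43 could be tested between stages. From E11.5 to E16.5, 12 rose and 12 fell, with a median log2 fold change of 0.13, where 14.7% of all genes were called higher and 14.6% lower. From E11.5 to E14.5, 7 rose and 12 fell (median -0.40, against 8.14% and 8.00% of all genes). From E14.5 to E16.5, 7 rose and 3 fell (median 0.08, against 7.19% and 5.92%). The counts for single lists below, from E11.5 to E16.5, stand beside the same 14.7% and 14.6% of all genes. Each list held only 2 to 11 tested genes, and no list was tested against these shares.

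Ligands other than Bmp4 and Bmp7 were mostly low, with 6 of 11 tested. From E11.5 to E16.5, 2 rose and 0 fell. Bmp3, an atypical ligand that opposes other BMPs, went from 0.35 ± 0.071 CPM (E11.5) to 24.6 ± 2.62 (E14.5) and 2.09 ± 0.85 (E16.5), as mean ± SD of 3 pools. It rose by 6.37 on the log2 scale to E14.5 (SE 0.30, adjusted p = 3.88e-09), the largest of any pathway gene. Gdf10 rose late, from 0.68 ± 0.24 and 1.48 ± 0.045 to 12.4 ± 2.33 CPM (a rise of 4.203 on the log2 scale from E11.5 to E16.5).

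Of 10 receptors and co-receptors, 3 rose (Neo1, Acvr1 and Rgma) and 4 fell (Eng, Acvrl1, Acvr2b and Bmpr1b) from E11.5 to E16.5. Neo1, the neogenin receptor that acts with repulsive guidance molecules as BMP co-receptors, went from 151 ± 4.67 to 516 ± 38.7 and 544 ± 27.9 CPM (log2 fold change 1.95, SE 0.07). Acvrl1 and Eng, which are known from endothelium, fell from 2.58 ± 0.30 and 6.21 ± 1.51 CPM to 0.30 ± 0.14 and 0.85 ± 0.34 CPM at E14.5 (log2 fold changes -3.16 and -2.87). At E16.5 they stayed low, at 0.44 ± 0.098 and 0.95 ± 0.26 CPM. The 8 endothelial markers summed to 4.88 to 6.06 CPM, then 1.40 to 3.69, then 3.77 to 4.97. The part of endothelial cells in this was not tested.

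Of 6 Smads and cofactors, Smad9 and Zeb2 rose and Zfp423 fell. Smad9 was low throughout, at 0.24 ± 0.16, 0.23 ± 0.087 and 0.93 ± 0.18 CPM (a rise of 1.98 on the log2 scale over both steps, SE 0.44, adjusted p = 0.00138). The other receptor Smads, Smad1 and Smad5, and Smad4 were not called in that comparison, with log2 fold changes of 0.51, -0.04 and 0.13. Of 5 negative regulators in the cell, Skil rose and Tob1 fell.

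Of 11 tested secreted antagonists, 3 rose (Sostdc1, Grem1 and Chrd) and 3 fell (Chrdl1, Nog and Fst) from E11.5 to E16.5. Chrdl1, a chordin-like protein that binds BMP4 and BMP7, went from 38.0 ± 5.08 to 8.44 ± 0.27 and 3.29 ± 0.33 CPM (log2 fold change -3.46, SE 0.12). Nog (noggin) went from 5.71 ± 0.32 to 1.26 ± 0.21 CPM (-2.17) and Fst (follistatin) from 5.98 ± 0.31 to 1.48 ± 0.74 CPM (-2.15). Grem1 was near 1 CPM at E11.5 and E14.5, at 1.04 ± 0.12 and 0.64 ± 0.17, and reached 13.8 ± 1.56 CPM at E16.5, a rise of 4.48 (SE 0.22) on the log2 scale from E14.5. Sostdc1 was at 0.29 ± 0.25, 0.34 ± 0.056 and 6.44 ± 0.71 CPM, a rise of 4.87 (SE 0.45) from E11.5 to E16.5.

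The other targets and the partners of the Id proteins completed the lists. Hey1, a target shared with Notch signalling, fell from 165 ± 6.15 to 57.6 ± 3.62 and 22.8 ± 0.81 CPM (log2 fold change -2.78, SE 0.07). Atoh8 fell from 4.85 ± 0.38 to 1.08 ± 0.39 and 0.73 ± 0.15 CPM (-2.60, SE 0.28). Msx1 and Msx2 did not pass the filter between stages. Msx1 had 2.86, 6.01 and 3.65 CPM at E11.5 and at most 0.066 CPM at E14.5, and at E16.5 it had 0.55 CPM in pool B against 0 and 0.053 CPM. Of 3 E proteins, Tcf4 rose (493 ± 41.8 to 1411 ± 44.1 CPM, log2 fold change 1.58) and Tcf3 fell (377 ± 32.5 to 145 ± 8.15 CPM, -1.33) from E11.5 to E16.5.

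**Figure D2:**
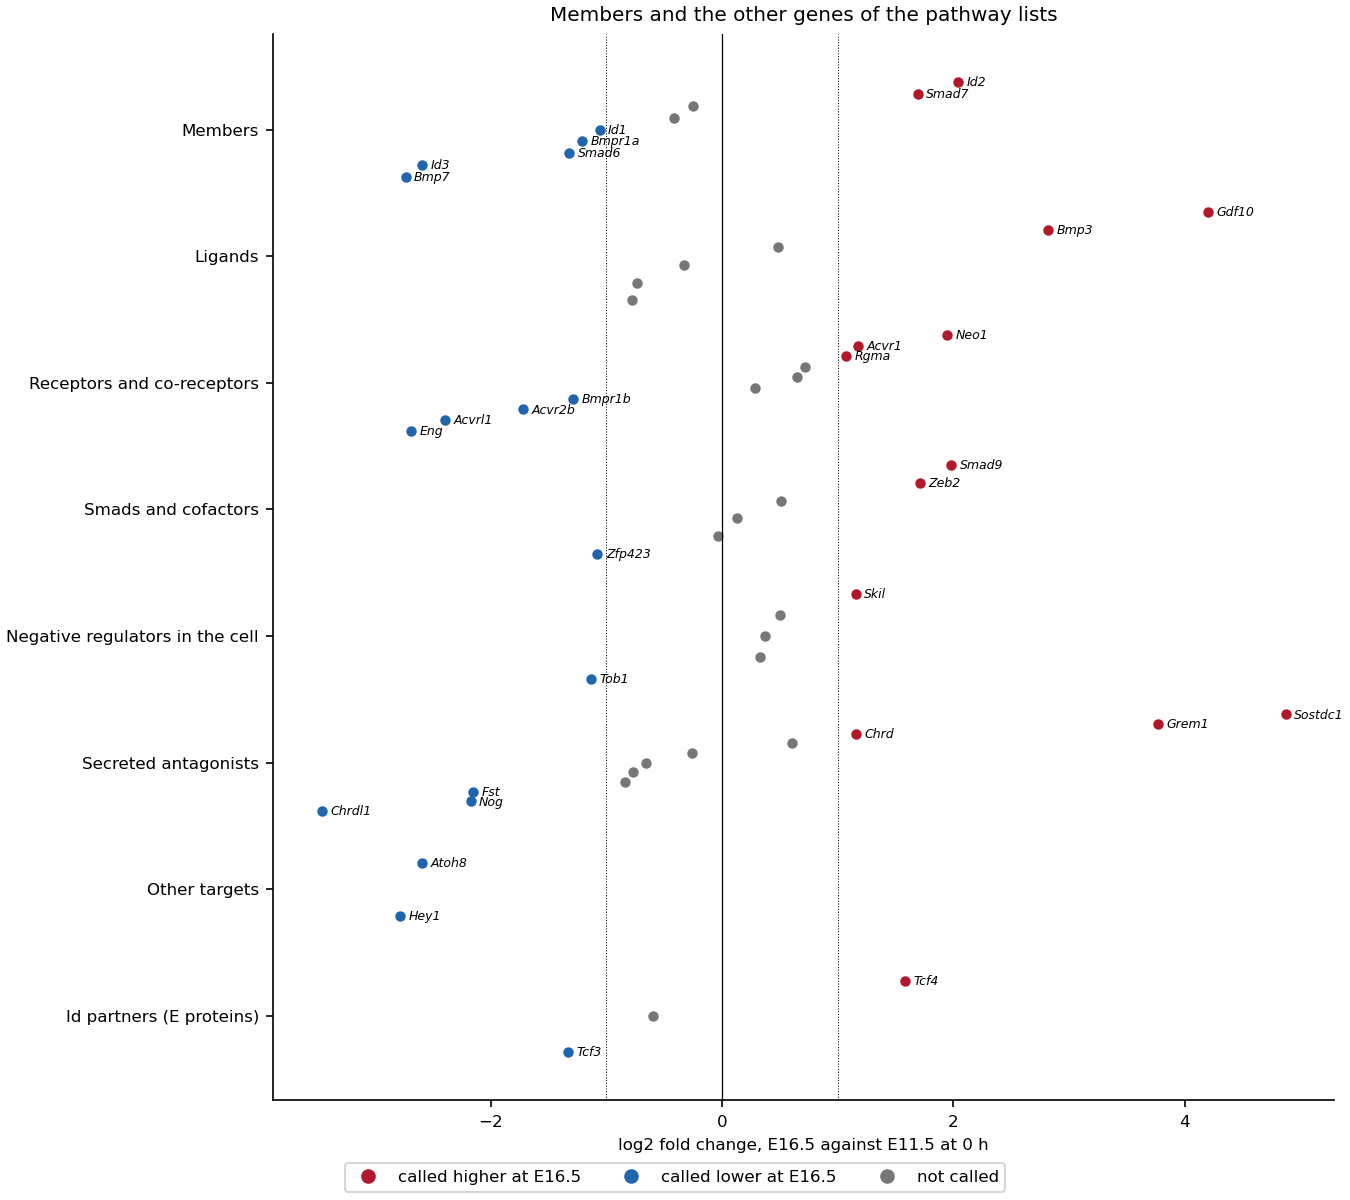
Log2 fold change from E11.5 to E16.5 at 0 h (horizontal axis) of the members and of the tested genes in 7 pathway lists (rows). Each point is 1 gene, coloured by its call, and the dotted lines mark the fold limit of 1. In the lists other than the members, 12 genes are called higher and 12 lower, and called genes of both directions stand in most rows.

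The next question was whether the members' levels held over the chase, since the half-life rests on label in RNA that is assumed to be replaced at an even rate. At 2 h against 0 h no member was called at any stage, where 0.0279%, 0.0501% and 0.0888% of genes were called at the 3 stages in order. Of the 28 member tests there, 0 had an adjusted and 6 an unadjusted p under 0.05 in edgeR. DESeq2 also called 0 members there, and 3 tests had an adjusted p under the limit with a smaller fold. At 12 h against 0 h no member was called either, against 3.97%, 2.28% and 3.03% of genes, and 7 of 28 tests had an unadjusted p under 0.05. With the pool as a block, which pairs wells of the same cells, 2 calls appeared (Bmp4 at E11.5 and Id3 at E14.5).

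Id2 was lower at 2 h than at 0 h in all 9 pools, and the share of all genes for which this held was not counted. Its 2 h levels were 98.5, 95.3 and 123 CPM (E11.5), 295, 270 and 302 CPM (E14.5) and 503, 470 and 447 CPM (E16.5). The log2 fold changes were -0.35 (SE 0.10), -0.35 (SE 0.10) and -0.17 (SE 0.05), with adjusted p of 0.115, 0.0992 and 0.0695. With the pool as a block the adjusted p were 9.51e-04, 0.00109 and 0.00300, and the folds stayed under the limit. At 12 h Id2 was back at 130, 123 and 139 CPM at E11.5 and at 608, 584 and 552 CPM at E16.5, but remained at 314, 255 and 300 CPM at E14.5. The change from 0 to 12 h differed between E14.5 and E11.5 by -0.53 (SE 0.14, adjusted p = 0.0132) and between E16.5 and E14.5 by 0.55 (SE 0.14, adjusted p = 0.0431) on the log2 scale, both under the fold limit.

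By CPM, Id3 moved in different directions at different stages. At E14.5 it went from 2.91, 6.86 and 4.67 CPM at 0 h to 7.44, 13.6 and 9.26 CPM at 12 h, and at E16.5 from 4.22, 4.55 and 6.60 to 7.42, 6.38 and 13.0 CPM. At E11.5 it went down, from 22.6, 20.97 and 54.6 to 17.9, 13.1 and 43.1 CPM. Each of the 3 pools of a stage moved the same way. From 0 to 12 h the 4 oligodendrocyte precursor markers also went up, 4 of 4 in all pools of E14.5 and E16.5. Their sum was 288 to 475 CPM at 0 h and 745 to 914 CPM at 12 h of E14.5, and 283 to 318 and 556 to 612 CPM at E16.5. At E11.5, where Id3 went down by CPM, 3 of 4 went up, with sums of 106 to 139 and 141 to 234 CPM. The 7 astrocyte markers summed to 604 to 670 and 629 to 700 CPM at E14.5 (4 of 7 up in all pools), and to 227 to 259 and 325 to 334 CPM at E16.5 (5 of 7 up). At E11.5 they summed to 1159 to 1200 and 968 to 1058 CPM (3 of 7 up and 2 down). Aldoc made up most of the E11.5 and E14.5 sums, at 552 to 614 CPM at 0 h of E14.5. Of the defining markers, Sox10 was below 0.1 CPM at 0 h and at 1.75 to 2.30 CPM at 12 h of E14.5, and S100b was at or near 0. The part of these cells in the Id3 level was not tested. The E14.5 difference of 1.11 on the log2 scale (SE 0.40, adjusted p = 0.0777) became a call with the pool as a block (1.14, adjusted p = 1.57e-05, where 3.06% of genes were called). At E16.5 it was 0.82 (SE 0.30, adjusted p = 0.0523), and 0.79 with the block (adjusted p = 2.59e-06), under the fold limit. At E11.5 it was -0.16 (SE 0.67, edgeR adjusted p = 0.897 without the block), so the fall in CPM there did not pass this test.

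The difference between stages in this change of Id3 was 1.24 (SE 0.79, adjusted p = 0.441) for E14.5 against E11.5 and 0.99 (SE 0.79, adjusted p = 0.505) for E16.5 against E11.5. With the pools as a block it was 1.36 (adjusted p = 2.68e-07, 2.38% of genes called) and 1.04 (adjusted p = 2.39e-05, 3.02% of genes called). Without the block 0 members were called in the 3 comparisons of this kind, with 4 of 27 tests at an unadjusted p under 0.05, against 1.53% (E14.5 against E11.5), 0.187% (E16.5 against E14.5) and 2.05% of genes (E16.5 against E11.5). E11.5 pool C held most of the Id3 level at that stage, and without it the first of these values was 1.41 (adjusted p = 0.161).

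Id1 and Id4 also drifted at E11.5. Id1 was at 9.47, 8.99 and 20.0 CPM at 0 h, at 6.30, 5.63 and 15.8 CPM at 4 h, and at 13.0, 10.7 and 23.1 CPM at 12 h, and each pool was lowest at 4 h. Its 12 h value differed from 0 h by 0.54 on the log2 scale (SE 0.54, adjusted p = 0.517, and 0.00170 with the block). Id4 went from 293, 305 and 315 CPM to 219, 196 and 185 CPM at E11.5, a difference of -0.45 on the log2 scale (SE 0.07, adjusted p = 2.19e-04), under the fold limit. At E14.5 and E16.5 its 12 h log2 fold changes were -0.14 (SE 0.08) and -0.11 (SE 0.06).

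**Figure D3:**
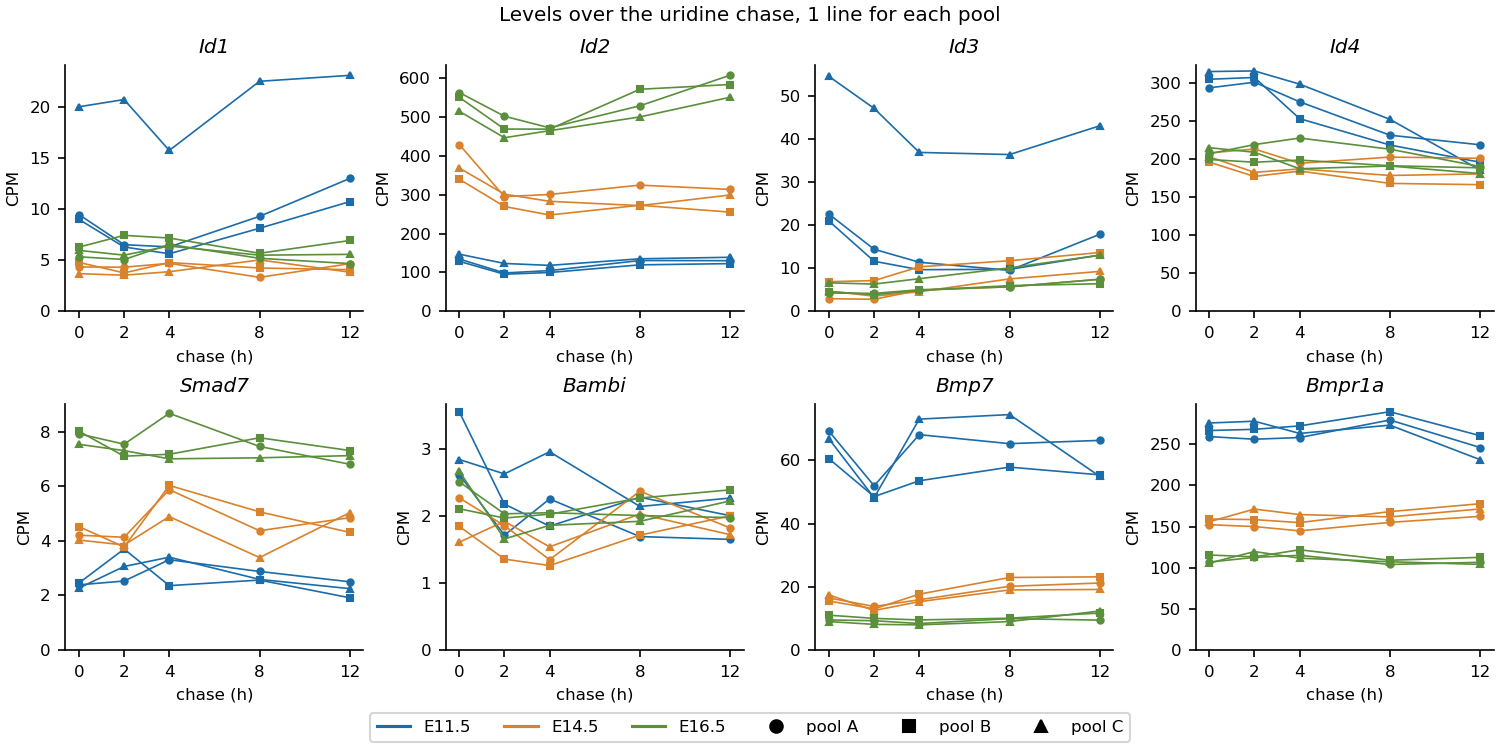
Expression of 8 members over the uridine chase, in CPM (vertical axes, from 0) against hours after uridine (horizontal axes). Each line is 1 pool, coloured by stage. Id2 is lower at 2 h than at 0 h in all 9 pools, Id3 ends above its start in the 6 later pools and below it in the 3 E11.5 pools, and E11.5 pool C runs far above the other lines for Id1 and Id3. How many genes are lower at 2 h in all 9 pools was not counted.

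Of the ligands, Bmp7 was lower at 2 h in all 9 pools, a pattern whose share over all genes was not counted. Its differences were -0.41 (SE 0.11), -0.30 (SE 0.09) and -0.10 (SE 0.13) on the log2 scale at the 3 stages in order (edgeR adjusted p of 0.0824, 0.124 and 0.768). At E14.5 it ended above its start, from 16.47, 15.5 and 17.4 to 21.2, 23.2 and 19.2 CPM (0.37, SE 0.09, adjusted p = 0.0133), under the fold limit. Bmp4 at E11.5 went from 0.27, 0.19 and 0.46 to 0.35, 0.92 and 0.69 CPM, or from 4 to 12 reads to 10 to 39 reads. This difference of 1.36 on the log2 scale (SE 0.51, adjusted p = 0.0668) became a call with the pool as a block (1.36, adjusted p = 0.0250, where 4.55% of genes were called) and in DESeq2 (adjusted p = 0.0413). In the E11.5 libraries of 12 h, Gm42418, a locus with many ribosomal RNA-like reads, took 29686 to 67623 CPM against 3862 to 9482 CPM at 0 h, and its part in these levels was not tested. Smad6, Smad7, Bambi and Bmpr1a had no adjusted p under 0.05 at 2 h or 12 h.

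Among the 51 other pathway genes, 12 h against 0 h gave 2 rises and 3 falls of 45 tested at E11.5, 1 rise and 0 falls of 44 at E14.5, and 2 rises and 2 falls of 44 at E16.5, against 3.97%, 2.28% and 3.03% of all genes in either direction. At E11.5 Gdf5 rose by 1.73 (SE 0.33, adjusted p = 0.00132) on the log2 scale, from a 0 h level of 1.78 ± 0.82 CPM.

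Decay was then read from the T-to-C conversion rate, the share of covered Ts read as C. A half-life was accepted where all 3 pools had more than 500 covered Ts at every time, an R2 over 0.6 and a value between 0 and 24 h. Of the 10 members, 6, 5 and 5 were accepted at the 3 stages in order, and 4 (Id2, Id4, Bmp7 and Bmpr1a) at every stage. Id1, Id2, Id3, Id4, Smad7, Bmp7 and Bmpr1a had more than 500 covered Ts in all 45 libraries, Bambi in 42, Smad6 in 22 and Bmp4 in 0. Bambi passed every limit in 2 pools of E14.5 (3.09 and 1.32 h) and 2 of E16.5 (1.89 and 2.98 h). The counts behind a rate set its precision. For Id2 at E16.5, 0 h, pool A, 4425 of 221601 covered Ts were converted, or 2.00% (95% Clopper-Pearson interval 1.94 to 2.06%). For Id1 at E14.5, 12 h, pool A, it was 1 of 1141, or 0.088% (0.0022 to 0.49%). Such intervals cover counting error only.

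**Figure D4:**
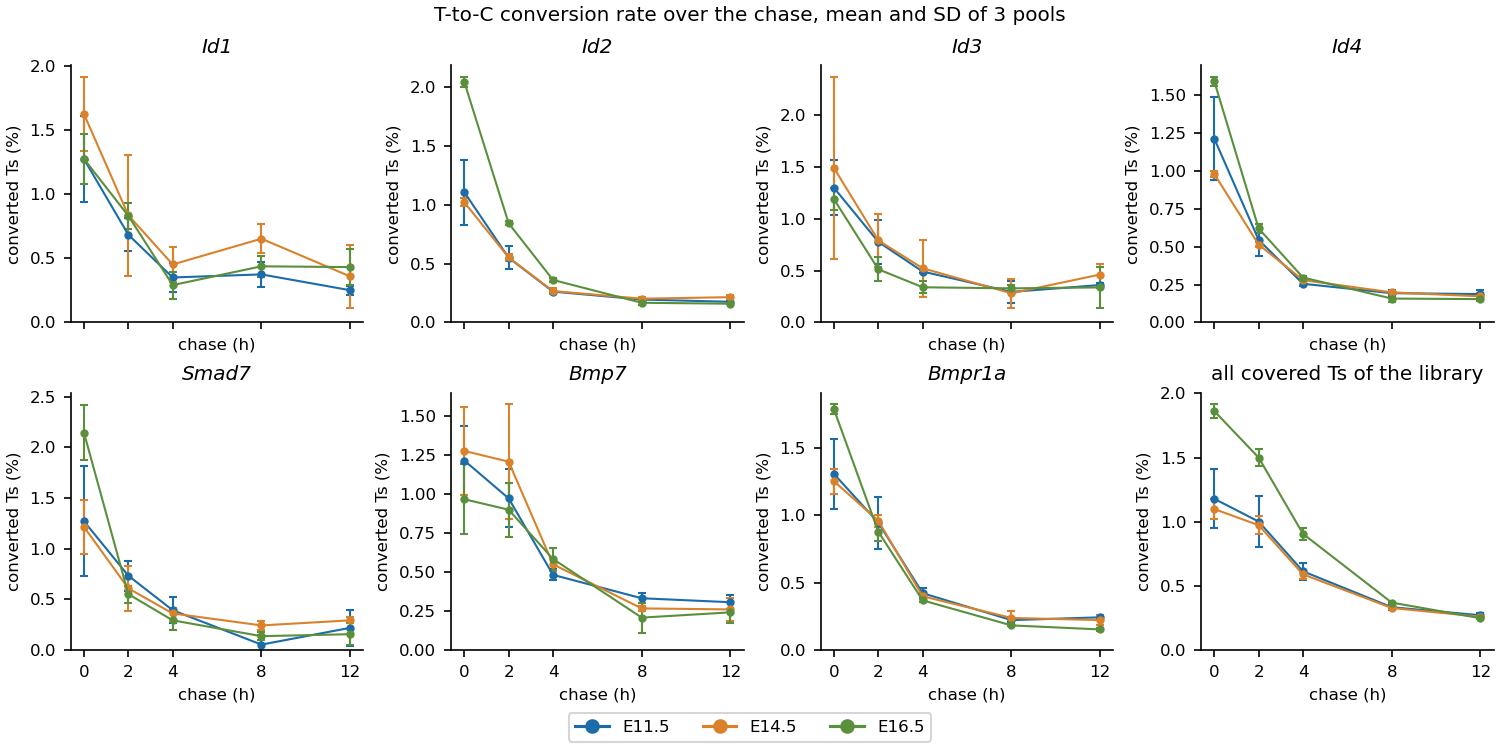
Conversion rate, in percent of covered Ts (vertical axes, from 0), against hours of chase (horizontal axes) for 7 members and for all covered Ts of the library. Points are means of 3 pools and bars are SDs, coloured by stage. By the mean rate, each of the 7 members loses most of its label by 4 h at every stage, except Bmp7 at E16.5 (0.97% at 0 h, 0.58% at 4 h). Bmp7 at E14.5 goes from 1.28% at 0 h to 1.21% at 2 h. The library total starts near 1.86% at E16.5 against 1.18% and 1.10% at E11.5 and E14.5.

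Id2 and Id4 were among the fastest decaying transcripts at all 3 stages. In pools A, B and C, Id2 had half-lives of 2.54, 2.48 and 1.89 h (E11.5), of 2.51, 2.65 and 2.52 h (E14.5), and of 1.61, 1.65 and 1.63 h (E16.5). Those of Id4 were 1.98, 2.32 and 1.72 h, then 2.47, 2.57 and 2.68 h, then 1.56, 1.56 and 1.72 h. All these values were below the stage's median transcript, which stood at 4.43, 4.60 and 3.48 h. The stage means of Id2 lay at percentiles 2.67, 4.93 and 2.30 of the 10858, 10686 and 11850 transcripts measured, and those of Id4 at 1.10, 5.09 and 2.08. Their ranges over the pools overlapped at every stage, although Id2 had the longer value in all 3 pools at E11.5, with means of 2.30 ± 0.36 and 2.01 ± 0.30 h, 2.56 ± 0.077 and 2.57 ± 0.11 h, and 1.63 ± 0.016 and 1.61 ± 0.091 h.

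Smad7 had a short half-life at the later stages and no accepted one at E11.5. Pools A, B and C gave 2.54, 2.47 and 3.03 h (E14.5) and 1.22, 1.10 and 1.06 h (E16.5), with no overlap. The median transcript was also shorter at E16.5, at 3.48 against 4.60 h, and the Smad7 difference was not tested. The E16.5 mean of 1.13 ± 0.084 h lay at percentile 0.0253 of 11850 transcripts, and the E14.5 mean of 2.68 ± 0.30 h at percentile 6.35 of 10686. All 3 E16.5 values are shorter than the 2 h to the first chase time, as those of Id2 and Id4 are there. The lowest covered Ts in pools A, B and C were 1528, 1918 and 850 (E14.5) and 1816, 2486 and 1989 (E16.5). Above a stricter limit of 2000 covered Ts, neither Smad7 half-life was accepted. At E11.5 pools B and C gave 2.78 and 1.53 h, and pool A gave 6.11 h with an R2 of 0.50, below the limit. In E16.5 pool A the rate went from 2.26% at 0 h to 0.61% at 2 h, and in pools B and C from 2.33% and 1.83% to 0.59% and 0.45%.

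Id1 and Id3 gave less certain values. At E11.5 Id1 was accepted at 6.62, 1.82 and 2.00 h, a spread of more than 3 times between pools, and Id3 at 2.72, 5.43 and 2.79 h. The odd pool is A for Id1 and B for Id3. At the later stages at least 1 pool of each gene had an R2 under 0.6. When converted and covered Ts were summed over the 3 pools, Id1 had 2.46, 3.39 and 3.73 h at the 3 stages and Id3 had 3.25, 3.30 and 2.58 h, with no error. Both genes' levels moved during the chase, and the fit takes the rate alone.

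Bmpr1a had mean half-lives between those of Id2 and Id4 and that of the median transcript. Its pools gave 3.49, 3.40 and 2.997 h (E11.5), 3.60, 3.07 and 3.62 h (E14.5), and 1.83, 1.99 and 2.02 h (E16.5). The means lay at percentiles 18.5, 19.5 and 7.62. Bmp7 was at 4.72, 4.92 and 3.74 h, then 3.95, 4.18 and 5.75 h, then 6.28, 5.39 and 4.64 h. Its percentiles were 50.6, 50.6 and 85.4, so it stood at the median at E11.5 and E14.5 and above it at E16.5. Bmp7 was the only accepted member above the stage median at E16.5.

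**Figure D5:**
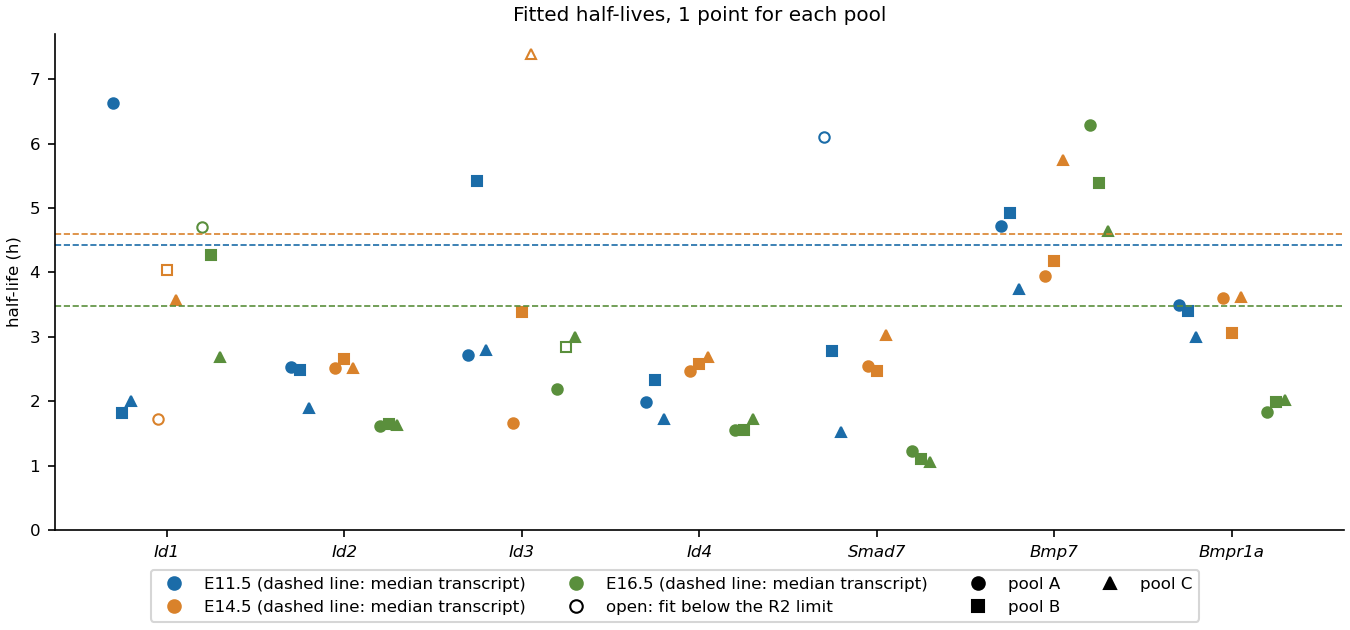
Half-lives in hours (vertical axis, from 0) of 7 members, 1 point for each pool, coloured by stage and shaped by pool. Filled points passed the R2 limit and open points did not, and dashed lines are the median transcript of each stage. Id2, Id4 and Bmpr1a lie below the dashed line of their stage in every pool, and the E16.5 points of Bmp7 lie above theirs.

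Whether a half-life differed between stages was tested on z-scores within each pool, since E16.5 cells lost label faster over the whole transcriptome. None of the 4 members was called in limma's moderated F-test over 9505 transcripts, where 3.15% were called and 2058 had an unadjusted p under 0.05. For Bmp7 the z-score was 1.02 at E16.5 against -0.13 at E11.5 and -0.16 at E14.5, a difference of 1.15 (SE 0.27) from E11.5, with an adjusted p of 0.0706 for the F-test. With an R2 limit of 0.8 it was called (F-test adjusted p = 0.0399, difference 1.36 from E11.5 to E16.5). From E11.5 to E16.5 Bmpr1a differed by -0.34 (SE 0.11), Id4 by 0.13 (SE 0.10) and Id2 by -0.01 (SE 0.10). Their adjusted p in the F-test over all 3 stages were 0.148, 0.262 and 0.644, in the same order. The largest Id4 difference was 0.27 (SE 0.10), at E14.5 against E11.5. In hours without z-scores Bmpr1a was called (F-test adjusted p = 0.0299, difference -1.35 h from E11.5 to E16.5), where 2296 of 9505 transcripts were. Smad7 was not in this test, since it lacked a value at E11.5.

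The label present at 0 h, after 20 h of 4sU, was compared as the rate relative to the rate over all covered Ts of the library. The library rate was 1.18 ± 0.23%, 1.10 ± 0.076% and 1.86 ± 0.057% at the 3 stages in order (SD, n = 3). Of 8 members with enough coverage, 5 were called across stages (Id1, Id2, Id4, Bmp7 and Bmpr1a), in limma's moderated F-test over 12530 genes, where 18.1% were called. Bmp7 had the largest difference. It stood at 1.10, 1.00 and 1.00 times the library rate in E11.5 pools A, B and C, at 1.26, 1.28 and 0.94 times at E14.5, and at 0.42, 0.52 and 0.63 times at E16.5, with no overlap between E16.5 and the other stages. Its log2 difference from E11.5 to E16.5 was -1.00 (SE 0.17, F-test adjusted p = 0.00458). The E16.5 values lay at percentiles 0.69, 2.11 and 4.42 of the genes tested.

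Id1 went the same way, from 0.84, 1.54 and 0.97 times the library rate at E11.5 and 1.20, 1.51 and 1.80 times at E14.5 to 0.70, 0.59 and 0.80 times at E16.5 (F-test adjusted p = 0.0382). Id3 had 0.68, 0.69 and 0.58 times at E16.5 but was not called (adjusted p = 0.167), although it was called without E14.5 pool A (0.0316) or pool C (0.0482). Id2 went up from 0.87, 0.95 and 0.99 times at E11.5 to 1.11, 1.09 and 1.09 times at E16.5 (F-test adjusted p = 0.0478), a log2 difference of 0.23 (SE 0.06). Id4 and Bmpr1a differed by -0.26 (SE 0.06) and -0.21 (SE 0.05) from E11.5 to E16.5, with F-test adjusted p of 0.0375 and 0.0274. Of these 5 calls, that of Bmp7 held without each library in turn and was lost only where rates were not scaled to the library (adjusted p = 0.197), and each of the others was lost without at least 1 library. Smad7 was at 1.27, 1.23 and 0.98 times the library rate at E16.5 and was not called (adjusted p = 0.952).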

How the data were processed

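SLAM-seq libraries (45, in 15 groups of stage and chase time) were analysed from 9 deposited tables. Per the study's methods, the authors aligned reads with SlamDunk to mm10 and summed exons of GENCODE release 24 for each gene. The authors deposited covered Ts as raw counts of T positions under reads, conversion rates as a fraction (converted over covered Ts), expression in CPM, and a half-life in hours with its R2 as other values. Strand use in counting is not given in the sources used here. CPM values were whole multiples of 1 read in 100% of cases (tolerance 0.01 reads), so whole reads were recovered. Of 53491 names, 51678 (96.6%) were found in GENCODE release 21 (GRCm38), used for positions and 3′ UTRs (APPRIS principal isoform with the longest 3′ UTR).

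Here, covered-T counts were tested with edgeR 4.0.16 (TMM, more than 10 counts in all libraries of a fit) in R 4.3.3. All 3 stages at 0 h shared one fit, each stage's 15 libraries another, and all 45 libraries another for differences in the change. A read adds 1 count for each T it covers, so counts are not independent molecules, and whole reads stand among the alternatives. Half-lives were refitted by exp(-kx) from the rates, and 99.991% of 117534 fits came within 1% of the deposited value. Half-lives and relative rates were tested with limma 3.58.1, since the study's regression software was not installed. DESeq2 1.42.0 was an alternative. The half-life fit and the edgeR and limma tests were tried on simulated data, and the other steps were not. The pool as a block was an alternative because wells of one letter in a stage share a pool, and same-letter libraries at 2 or 12 h and at 0 h deviated together (correlations 0.282 to 0.823), unlike those of different stages (-0.176 to 0.209).

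The members and lists were chosen with earlier results of these data known. Always named were the 10 members, then up to 15 other pathway genes (of 29 called) by largest fold change, and 3 genes most like each Id gene. Other genes named in a count of calls, receptor Smads and markers of other tissues were named after their values were seen. Python 3.11.15 with pandas 2.3.3, scipy 1.17.1 and matplotlib 3.10.9 made the tables and plots.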

Additional observations from a re-analysis of the deposited data

Results flagged for a closer look

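In 2 ways, members stood out in how their change from 0 to 12 h of chase differed between stages. By edgeR's test of the difference, 3 of 27 tests had an adjusted p under 0.05, all under the fold limit. For Id2 the difference was -0.53 on the log2 scale between E14.5 and E11.5 (SE 0.14, adjusted p = 0.0132) and 0.55 between E16.5 and E14.5 (SE 0.14, adjusted p = 0.0431). For Id4 it was 0.34 between E16.5 and E11.5 (SE 0.11, adjusted p = 0.0343).

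Members were also marked where all 3 pools of one stage went up and all 3 of another went down, by CPM. By CPM such patterns were found in 8.62% of 16559 genes between E14.5 and E11.5 (3 of 9 members), in 4.01% between E16.5 and E14.5 (2 of 9) and in 11.9% between E16.5 and E11.5 (2 of 9). The mean log2 ratio of 12 h to 0 h then differed for Id3 by 1.56 between E14.5 and E11.5 and by 1.21 between E16.5 and E11.5. It differed for Id2 by 0.16 between E16.5 and E11.5 and by 0.49 between E16.5 and E14.5. The value was 0.52 for Bmp7 and 0.25 for Bmpr1a between E14.5 and E11.5, and -0.15 for Bmpr1a between E16.5 and E14.5. With edgeR's scaling, the E11.5 fold changes of Id2, Bmp7 and Bmpr1a were above 0 (0.13, 0.03 and 0.08 on the log2 scale), so their opposite direction at E11.5 is seen in CPM alone. The E11.5 libraries of 12 h were those with much Gm42418. Of these 7 patterns, edgeR's test of the difference gave an adjusted p under 0.05 for Id2 between E16.5 and E14.5. The adjusted p of the others were 0.441 and 0.505 for Id3, 0.966 for Id2, 0.315 for Bmp7, and 0.915 and 0.690 for Bmpr1a.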

How the results depend on the processing

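The alternatives changed the tool, normalization, low-count filter, counting unit, pool block, scaling, filters and, one at a time, the replicates. For the counts of members called or accepted, 188 alternative values were within 1.5 times the main count. Testing the fold limit with glmTreat left 3 members called between E11.5 and E14.5, and the 12 h libraries gave 1 from E14.5 to E16.5 (Id2, 1.08). For 12 h against 0 h, E11.5 gave 1 member with the replicate block and 1 in DESeq2 (Bmp4), and E14.5 gave 1 without a low-count filter, 1 with the replicate block and 1 with only the libraries of both times (Id3). The change from 0 to 12 h gave 1 member (Id3) with the replicate block for E14.5 against E11.5 and 1 for E16.5 against E11.5. The block changed no other call of expression. Relative half-lives gave 1 member in hours without z-scores (Bmpr1a) and 1 with R2 over 0.8 (Bmp7), and the replicate block, which pairs stages by letter only, left 0 of 9505 transcripts called (1861 at an unadjusted p under 0.05). Relative rates gave 3 members scaled to the median gene and 1 (Bmp7) with the replicate block. Leaving out single replicates gave 5 to 5 members from E11.5 to E14.5, 6 to 7 from E11.5 to E16.5, 0 to 1 for 12 h against 0 h at E14.5 (1 without E14.5 pool B), 1 to 4 for relative rates, and 6 to 7, 5 to 7 and 5 to 7 accepted half-lives at the 3 stages, and left the other counts at 0. With no scaling to the library total, the differences from E11.5 to E16.5 reversed to 0.033 for Id1, 0.41 for Id4 and 0.47 for Bmpr1a, where the library rate itself was higher at E16.5. Half-lives moved with the measure: with a pooled background of 0.134% subtracted Id2 was at 1.57, 1.72 and 1.36 h and Smad7 at E16.5 at 0.92 h, and fitted to rate times CPM, an alternative chosen after seeing the data, Id2 was at 1.71, 1.77 and 1.44 h and Id3 at 1.80, 9.45 and 4.24 h against 3.65, 4.14 and 2.67 h from the rate alone (only that of E11.5 accepted). Depth limits Smad6, Bambi and Bmp4, for which rates rested on fewer than 500 covered Ts in part or all of the libraries. Above a stricter limit of 2000 covered Ts, Smad7 at E14.5 and E16.5 and Id1 at E11.5 were no longer accepted.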
